A study of Mus musculus with 4 samples.

Results

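Collecting duct principal cells are described here from 758 nuclei, 1.97% of the 38481 quality-filtered barcodes of 4 single-nucleus RNA libraries of mouse kidney cortex. A barcode was kept with at least 200 genes and at most 10% mitochondrial UMIs (unique molecular identifiers, 1 per counted RNA molecule). It was taken as a principal cell nucleus when at least 2 of the 6 genes Aqp2, Aqp3, Scnn1g, Scnn1b, Hsd11b2 and Fxyd4 were detected, with at least 3 UMIs in sum. Nuclei with more than 3 UMIs over the proximal tubule genes Slc34a1, Lrp2, Cubn and Slc27a2, or more than 1 over the distal genes Slc12a1, Slc12a3 and Slc8a1, were left out. The members were therefore chosen on measured values, and the levels of these 13 genes describe the choice.

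The groups were MRL/lpr mice aged 10 weeks with 193 principal cell nuclei, C57BL/6 mice aged 10 weeks with 249, MRL/lpr mice aged 6 weeks with 148, and C57BL/6 mice aged 6 weeks with 168. All mice were female, and each group was 1 library, with no statement of how many animals it held. MRL/lpr mice carry the lpr mutation of the death receptor gene Fas on the MRL background and develop lupus-like nephritis, while C57BL/6 mice served as the strain without it. Without MRL animals that carry a working Fas gene, effects of the mutation, of the rest of the genome and of disease cannot be told apart. With 1 library per group no strain or age difference has a replicate check and none was tested. Ratios of summed UMIs (MRL/lpr over C57BL/6, or 10 over 6 weeks) are given with 95% intervals that cover counting error only.

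Principal cells line the collecting duct beside the acid-base transporting intercalated cells and set the final water, sodium and potassium content of urine. Vasopressin, acting on the receptor Avpr2 and cyclic AMP, moves the water channel Aqp2 to the apical membrane, and water leaves through Aqp3 at the basolateral side. Aldosterone, acting on the mineralocorticoid receptor Nr3c2, raises the activity of the epithelial sodium channel ENaC, made of the subunits Scnn1a, Scnn1b and Scnn1g, while the enzyme Hsd11b2 inactivates glucocorticoids that would otherwise occupy the receptor.

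The libraries held between 6466973 and 7660682 UMIs in 9365 to 10182 barcodes, and the principal cell nuclei held 313343 UMIs in all. These nuclei were shallow, with medians of 378 UMIs in MRL/lpr and 390 in C57BL/6 at 10 weeks, and of 403 in MRL/lpr and 371 in C57BL/6 at 6 weeks. No member barcode was shared between libraries, although 109 to 137 kept barcodes were shared by each pair of libraries. As a check of strain, the class II gene H2-Ea, silent in C57BL/6 mice, gave 44 UMIs in MRL/lpr at 10 weeks and 55 in MRL/lpr at 6 weeks. It gave 0 in both C57BL/6 libraries, which allows up to 0.445 CPM (UMIs scaled to 1000000) at 10 weeks and 0.441 CPM at 6 weeks. Fas itself had 2 UMIs in the principal nuclei of MRL/lpr at 10 weeks and 0 in the other 3 groups, too few to check a label.

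Principal cell nuclei made up 2.03% of kept barcodes in MRL/lpr at 10 weeks (exact binomial 95% interval 1.76 to 2.34), against 2.59% (2.28 to 2.93) in C57BL/6. At 6 weeks they made up 1.58% (1.34 to 1.85) in MRL/lpr and 1.68% (1.44 to 1.95) in C57BL/6. Dividing the MRL/lpr share by the C57BL/6 share gave 0.785 (0.647 to 0.952) for the older and 0.942 (0.7499 to 1.18) for the younger mice, so the counting interval lay below 1 only at the older age. The share at 10 weeks was 1.29 times (1.03 to 1.61) the share at 6 weeks in MRL/lpr, and 1.54 times (1.26 to 1.89) in C57BL/6. Counted among principal, intercalated and late distal or connecting nuclei alone, principal cells made up 20.0% in MRL/lpr and 20.8% in C57BL/6 at 10 weeks, a ratio of 0.962 (0.793 to 1.17). With every barcode thinned to 500 UMIs, which kept 29 MRL/lpr and 44 C57BL/6 principal nuclei at 10 weeks and 46 MRL/lpr and 26 C57BL/6 at 6 weeks, the older mice gave a ratio of 0.623 (0.376 to 1.02) and the younger 1.45 (0.875 to 2.44).

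**Figure D1:**
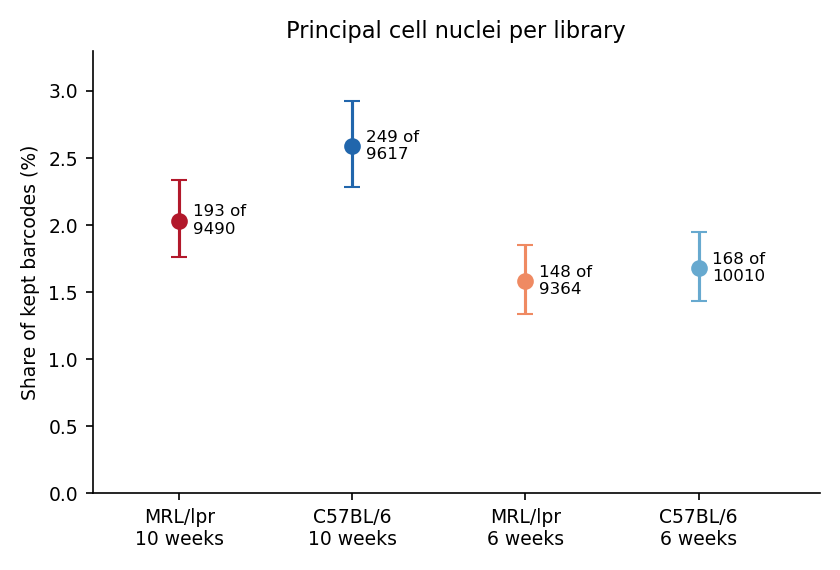
Share of kept barcodes that were principal cell nuclei (y axis, percent) in each of the 4 libraries (x axis), with exact binomial 95% intervals and the counts behind each point. The MRL/lpr point at 10 weeks, 2.03%, lies below the C57BL/6 point, 2.59%, and both 6-week points lie below 1.7%.

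Most members carried several of the 6 genes of the rule. Of the 758 nuclei, 150 had 2 of them, 277 had 3, 228 had 4, 81 had 5 and 22 had all 6, and their summed count ran from 3 to 52 UMIs with a median of 9. Aqp2 was detected in 729 nuclei (96.2%), and 356 nuclei had both Aqp2 and an ENaC subunit of the rule, Scnn1b or Scnn1g. Aqp2 was absent from 29 members, of which 18 had an ENaC subunit. Those 29 nuclei had 0 UMIs of Avpr2, against 141 in the 729 nuclei with Aqp2 (467 CPM), but their 11688 UMIs allow up to 316 CPM. At the edge of the rule, 45 members had exactly 3 UMIs of the 6 genes while 49 barcodes with 2 UMIs fell outside, and 329 members had 1 distal UMI while 222 barcodes with 2 distal UMIs fell outside. The distal limit left out 1579 barcodes in all and the proximal limit 97.

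Aqp2 (ENSMUSG00000023013), detected in the largest share of members among the 6 genes of the rule, had 9987 CPM in MRL/lpr nuclei and 14977 CPM in C57BL/6 nuclei at 10 weeks, and 12862 CPM in MRL/lpr and 11853 CPM in C57BL/6 at 6 weeks. The lowest level was thus in MRL/lpr and the highest in C57BL/6, both at 10 weeks. Aqp3 followed the same order, with 1135 CPM in MRL/lpr and 1779 CPM in C57BL/6 at 10 weeks, and 1610 CPM in MRL/lpr and 1387 CPM in C57BL/6 at 6 weeks. Thinned to 200 UMIs per nucleus, Aqp2 was detected in 83.9% of MRL/lpr and 89.2% of C57BL/6 nuclei at 10 weeks, and in 89.2% of MRL/lpr and 82.7% of C57BL/6 nuclei at 6 weeks. In podocyte nuclei, which should lack it, the thinned share was between 0 and 1.80%, and unthinned it was at most 3.15% at median depths of 450 to 600.5 UMIs, against at least 95.2% of principal nuclei.

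Each gene of the rule was also compared in nuclei that met the rule without it. On that basis the log2 strain ratio, in which a negative value means lower in MRL/lpr, was -0.60 (-0.75 to -0.46) for Aqp2 in the older mice and 0.10 (-0.06 to 0.27) in the younger. Aqp3 gave -0.70 (-1.11 to -0.31) in the older mice and 0.17 (-0.25 to 0.60) in the younger, so both channels were lower in MRL/lpr beyond counting error at 10 weeks and neither was at 6 weeks. The sodium genes did not share this pattern. Hsd11b2 was lower in MRL/lpr at 6 weeks (-0.61, -0.96 to -0.26) and within counting error at 10 weeks (-0.14, -0.42 to 0.14). For Scnn1g, Scnn1b and Fxyd4, a small regulator of the sodium pump, the ratios lay between -0.26 and 0.31 and every interval held 0. Aqp2 counts in other classes gave 0.09 at 10 weeks and 1.51 at 6 weeks in late distal or connecting nuclei. In proximal tubule nuclei the Aqp2 ratios were -1.14 at 10 weeks and 0.66 at 6 weeks. Intercalated nuclei, with 3 to 13 Aqp2 UMIs per library, gave -1.81 at 10 weeks and -0.57 at 6 weeks. Whether the Aqp2 ratio is particular to principal nuclei was not tested.

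**Figure D2:**
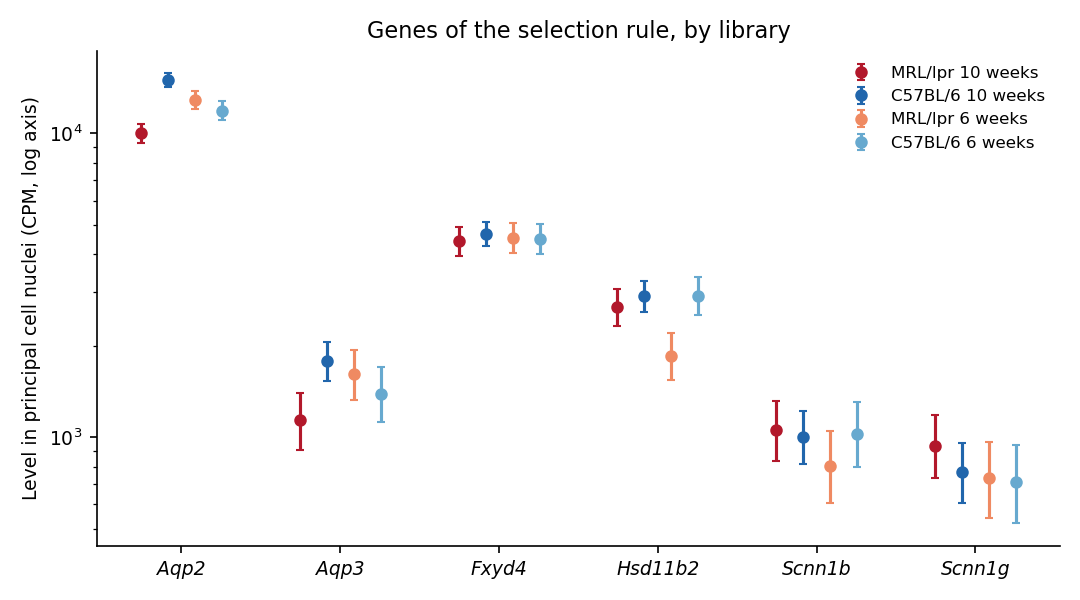
Level of the 6 genes of the rule in principal cell nuclei (y axis, CPM on a log axis), 1 point per library with its exact Poisson 95% interval. Aqp2 is lowest in MRL/lpr at 10 weeks (9987 CPM) and highest in C57BL/6 at 10 weeks (14977 CPM), while the 4 points of Fxyd4 lie between 4406 and 4655 CPM.

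The stretches before the transcription starts of the water channel genes are shown because both genes lay in the same direction in the strain ratios at 10 weeks, together with that of Atp4a, the gene with the largest ratio below 0 at 10 weeks among the genes named from the strain comparison. The sequences are from RefSeq (GRCm38.p6, the C57BL/6J genome), 250 bases up to the start, 5' to 3' on the gene's strand, and 6 of the 7 genes looked up had an entry. Aqp2 lies at chr15:99578806-99579055 on the plus strand, Aqp3 at chr4:41098184-41098433 on the minus strand and Atp4a at chr7:30711959-30712208 on the plus strand. Capitals mark matches, on either strand, to the GATA factor motif AGATAA, the core TGACG of the cyclic AMP response element, the HNF1 core GTTAAT or the steroid receptor core AGAACA.
Aqp2: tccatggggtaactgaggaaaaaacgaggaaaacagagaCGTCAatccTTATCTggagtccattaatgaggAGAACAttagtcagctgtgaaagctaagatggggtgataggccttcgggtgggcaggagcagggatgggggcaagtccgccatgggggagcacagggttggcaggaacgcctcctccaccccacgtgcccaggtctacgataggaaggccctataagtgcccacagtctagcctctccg
Aqp3: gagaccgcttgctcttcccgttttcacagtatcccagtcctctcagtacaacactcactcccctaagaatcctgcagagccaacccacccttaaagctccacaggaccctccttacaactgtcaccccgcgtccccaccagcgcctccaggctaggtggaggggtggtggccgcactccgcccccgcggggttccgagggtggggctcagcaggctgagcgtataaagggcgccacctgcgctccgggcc
Atp4a: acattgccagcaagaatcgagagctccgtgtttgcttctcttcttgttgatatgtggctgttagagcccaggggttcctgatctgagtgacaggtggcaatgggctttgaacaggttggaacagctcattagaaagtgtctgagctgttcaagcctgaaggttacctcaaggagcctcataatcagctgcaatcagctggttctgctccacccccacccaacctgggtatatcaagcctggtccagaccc
The Aqp2 stretch held 1 match each to the GATA, cyclic AMP and steroid receptor motifs, which do not overlap, and those of Aqp3 and Atp4a held none. Over 32851 such stretches, 9.99% held the GATA motif, 17.8% the cyclic AMP core, 6.43% the HNF1 core and 16.1% the steroid receptor core, so each match is common and only describes the letters. MRL/lpr sequence was not analysed here.

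The label was checked with 14 principal cell markers that the rule did not use. All 14 had UMIs in the members, and their summed level was 6847 CPM in MRL/lpr and 6434 CPM in C57BL/6 at 10 weeks, and 5985 CPM in MRL/lpr and 6379 CPM in C57BL/6 at 6 weeks. That range lay above the 3766 to 4325 CPM of intercalated, the 3852 to 4569 CPM of late distal or connecting and the 1049 to 1445 CPM of podocyte nuclei. Aqp4, another basolateral water channel, had 5 UMIs and the transcription factor Elf5 had 2, so both were near 0. Markers of other cells were present too. The 5 connecting tubule markers summed to 2441 CPM in MRL/lpr and 3946 CPM in C57BL/6 at 10 weeks, and to 2107 CPM in MRL/lpr and 3272 CPM in C57BL/6 at 6 weeks, against at least 59329.7 CPM in late distal or connecting nuclei. Their sum was thus lower in MRL/lpr at both ages, and its part in the strain ratios was not tested. Slc8a1, Calb1 and Trpv5 among them chose the late distal or connecting nuclei, and the rule limits Slc8a1 in members. The gap to that class thus follows in part from the choice. Intercalated markers summed to 224 CPM in MRL/lpr and 583 CPM in C57BL/6 at 10 weeks, and to 1112 CPM in MRL/lpr and 618 CPM in C57BL/6 at 6 weeks, against at least 18854 CPM in intercalated nuclei themselves. Of these 10 markers, 7 chose the intercalated nuclei, so that gap also follows in part from the choice. The other 3, Kit, Insrr and Atp6v1c2, summed to 13.2 to 176 CPM in principal and 2669 to 3261 CPM in intercalated nuclei. Proximal tubule markers summed to 1604 to 1873 CPM over the libraries, against 1122 to 1480 CPM in podocyte nuclei, and 564 members (74.4%) had no UMI of the 4 proximal genes of the rule.

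Principal nuclei were set against the intercalated nuclei of the same libraries to describe what distinguishes them beyond the rule. Intercalated nuclei were chosen by at least 2 of 7 genes of that cell type and at least 3 UMIs over them, and there were 272 in MRL/lpr and 346 in C57BL/6 at 10 weeks, and 293 in MRL/lpr and 308 in C57BL/6 at 6 weeks. Genes used in either choice are left out. Potassium channel, vasopressin and Notch pathway genes were among those higher in principal nuclei, and the Notch ligand Jag1 was lower. Of 3393 genes tested, 362 (10.7%) were at least 2-fold higher in principal nuclei and 339 (9.99%) at least 2-fold lower, at an adjusted p under 0.05 by edgeR's quasi-likelihood test with Benjamini-Hochberg adjustment and the library as a block. Of the 14 markers outside the rule, 10 could be tested, 7 of them higher and 0 lower.

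The vasopressin receptor Avpr2 had 369 CPM in MRL/lpr and 564 CPM in C57BL/6 principal nuclei at 10 weeks, and 307 CPM in MRL/lpr and 513 CPM in C57BL/6 at 6 weeks, against 0 to 6.83 CPM in intercalated nuclei. Over the libraries, 141 UMIs stood against 2, a ratio of 153 (41.5 to 1275), with an adjusted p of 6.06e-20 by edgeR's quasi-likelihood test. Kcnj1, the apical potassium channel ROMK, averaged 405 ± 117 CPM in principal and 17.5 ± 3.27 CPM in intercalated nuclei (SD, n = 4 libraries each), a log2 ratio of 4.49 ± 0.33 (SE). Other channel and cilium genes lay on the same side. The basolateral channel genes Kcnj16 (log2 4.03 ± 0.26) and Kcnj10 (3.47 ± 0.51), the fibrocystin gene Pkhd1 (1.46 ± 0.14) and Bicc1 (1.04 ± 0.16), both mutated in cystic kidneys, were also higher, making 5 of the 8 potassium and cilium genes tested, with 0 lower and a list median of 1.25 against 0.01 over all genes.

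Among identity factors and Notch genes, 9 of 15 tested were higher in principal nuclei and 1 was lower, with a list median of 1.22. The receptor Notch2 averaged 129 ± 16.8 CPM in principal and 5.46 ± 6.30 CPM in intercalated nuclei (SD, n = 4 libraries each), a log2 ratio of 4.28 ± 0.60 (SE). Mib1, the ubiquitin ligase that readies Notch ligands for signalling, was higher (2.63 ± 0.24), while the ligand Jag1 was lower (-3.05 ± 0.38), with 30.1 ± 22.3 CPM in principal and 283 ± 59.8 CPM in intercalated nuclei. The receptor and the ligand thus lay on opposite sides of the comparison, each in 4 of 4 libraries. Of the transcription factors, Tfap2b (2.72 ± 0.34), Pax2 (1.85 ± 0.20), Ehf (1.85 ± 0.37), Gata3 (1.61 ± 0.21), Pax8 (1.30 ± 0.19), Gata2 (1.22 ± 0.29) and Emx2 (1.15 ± 0.34) were higher. Tfcp2l1, a factor used in both cell types, had -0.67 ± 0.15 and did not reach 2-fold.

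For sodium handling outside the rule, 1 of 12 genes tested was higher in principal than in intercalated nuclei and 2 were lower. Over all genes tested 10.7% were higher and 9.99% lower, and the list median was -0.03 against 0.01. The kinase gene Stk39 (SPAK) was higher (log2 1.02 ± 0.18), and its upstream kinases Wnk1 (-1.34 ± 0.19) and Wnk4 (-1.15 ± 0.27) were lower. The third ENaC subunit, Scnn1a, averaged 402 ± 130 CPM in principal and 373 ± 98.3 CPM in intercalated nuclei, with an adjusted p of 0.665 by edgeR, and the mineralocorticoid receptor Nr3c2 had a log2 ratio of 0.83 ± 0.15, below 2-fold. Water and vasopressin genes gave 3 higher and 1 lower of 12. Besides Avpr2 the higher ones were 2 phosphodiesterases that break down cyclic nucleotides, Pde10a (7.40 ± 0.25) and Pde4d (2.35 ± 0.15), and the lower one was the other vasopressin receptor of the list, Avpr1a (-3.26 ± 0.46). The prostaglandin E receptor Ptger3 was lower as well (-4.32 ± 0.52), whereas the prostaglandin E synthase Ptges was higher (1.64 ± 0.39).

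Of the 10 highest genes outside both choices, several were ion channel and signalling genes. Kcnc2, a voltage-gated potassium channel gene, had 272 UMIs in principal against 1 in intercalated nuclei, a ratio of 590 (105 to 23381). Dab1 (216 against 2 UMIs), Pde10a (1084 against 13), Col26a1 (260 against 5) and Egfem1 (312 against 6) followed the same direction. The potassium channel gene Kcnh5 (71 UMIs), the guanine nucleotide exchange factor gene Rasgrf2 (64) and the receptor gene Gprc5b (48) had 0 UMIs in intercalated nuclei. Against 3 UMIs over those nuclei, the number a count of 0 allows, they were at least 51.3-fold, 46.3-fold and 34.7-fold higher. In the other direction, Tshr had 1 UMI in principal against 430 in intercalated nuclei, Hmx2 4 against 429, Oxgr1 3 against 322, and Tafa1 0 against 187, which makes Tafa1 at least 28.7-fold lower.

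**Figure D3:**
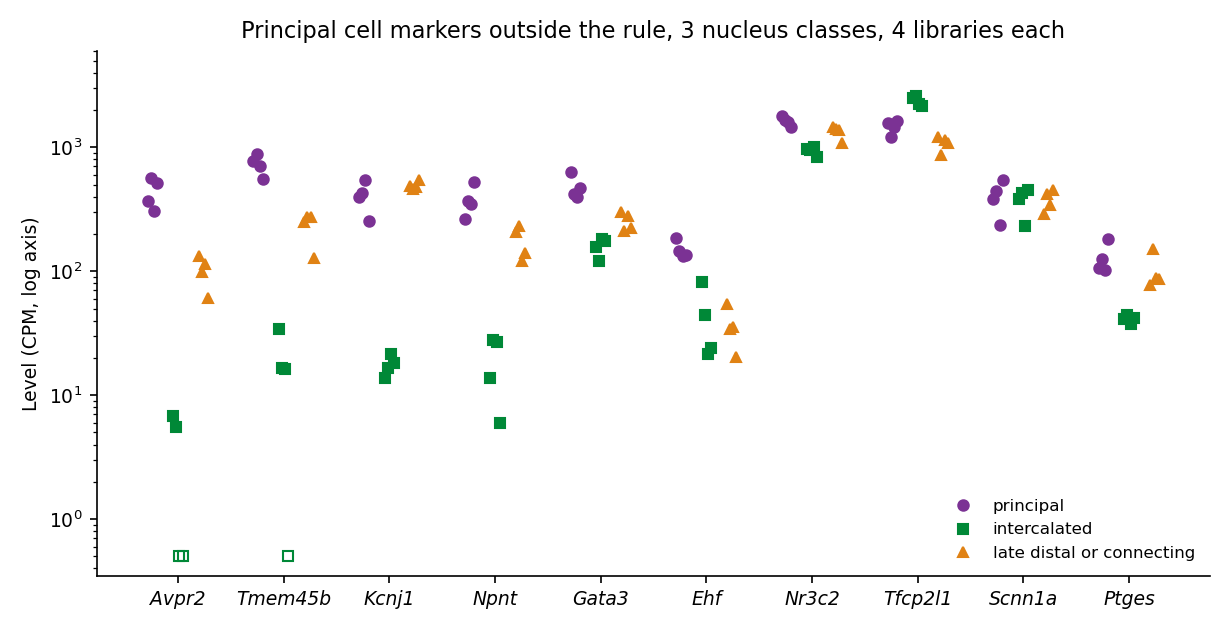
Level of 10 principal cell markers outside the rule (y axis, CPM on a log axis) in principal, intercalated and late distal or connecting nuclei, 1 point for each of 4 libraries; open symbols at the lowest position are libraries with 0 UMIs. Avpr2, Tmem45b, Kcnj1 and Npnt separate principal from intercalated nuclei in every library, Kcnj1 does not separate principal from late distal or connecting nuclei, and Tfcp2l1 is higher in intercalated nuclei.

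The segment just upstream is the closer neighbour. Late distal or connecting nuclei, chosen by at least 2 of Slc8a1, Calb1 and Trpv5, numbered 498 in MRL/lpr and 600 in C57BL/6 at 10 weeks, and 576 in MRL/lpr and 674 in C57BL/6 at 6 weeks. Of 4560 genes tested, 273 (5.99%) were at least 2-fold higher in principal nuclei and 243 (5.33%) at least 2-fold lower. Avpr2 (log2 2.07 ± 0.21), Ehf (1.98 ± 0.33), Tmem45b (1.60 ± 0.16) and Npnt (1.04 ± 0.21) were higher, 4 of the 10 markers tested outside the rule, with 0 lower. Kcnj1 averaged 405 ± 117 CPM in principal and 494 ± 36.1 CPM in late distal or connecting nuclei (SD, n = 4 libraries each), with an adjusted p of 0.164 by edgeR.

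The identity list again lay toward principal nuclei, with 6 of 15 higher and 1 lower. Emx2 (2.25 ± 0.34), Mib1 (1.90 ± 0.20), Gata2 (1.60 ± 0.26), Pax8 (1.48 ± 0.17) and Pax2 (1.07 ± 0.16) were higher with Ehf, while Emx1 was lower (-1.31 ± 0.24). Of 13 sodium genes tested 1 was higher and 3 were lower, against 5.99% and 5.33% of all genes. The list median was 0.23, against 0.01 over all genes. Nedd4l, the ubiquitin ligase that removes ENaC from the membrane, was higher (1.08 ± 0.13). Among the lower ones, Wnk1 averaged 309 ± 60.1 CPM in principal and 5904 ± 1360 CPM in late distal or connecting nuclei (log2 -4.33 ± 0.17), and Wnk4 was lower as well (-2.73 ± 0.21). Wnk1 was also on the list of distal convoluted tubule markers. Another of that list, Slc12a3, had 13829.5 CPM in late distal or connecting and 105 CPM in principal nuclei, where the rule limits it. The part of this choice of classes in the sodium gene ratios was not tested. Potassium and cilium genes gave 0 of 8 in either direction. The prostaglandin E receptor Ptger1 was higher (2.82 ± 0.43), with 113 ± 31.2 CPM in principal and 15.7 ± 12.7 CPM in late distal or connecting nuclei.

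The 10 highest genes against late distal or connecting nuclei included Mgat4c (572 against 44 UMIs, a ratio of 55.6, interval 40.9 to 77.4), Dab1 (216 against 21, ratio 44.0), Mcoln3 (108 against 12, ratio 38.5) and the carbonic anhydrase gene Car15 (306 against 103, ratio 12.7). Dab1 and Kcnh5 were among the 10 highest in both comparisons. Among the lowest were the magnesium channel gene Trpm6 (8 against 1802 UMIs), Abca13 (8 against 2759) and the transcription factor genes Esrrb (2 against 336) and Sall3 (0 against 259, at least 20.2-fold lower). Trpm6 was also on the list of distal convoluted tubule markers.

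Between the strains, water and sodium genes were compared next, on the same log2 scale. The median over all 1402 genes with at least 50 UMIs was 0.01 at 10 weeks and -0.04 at 6 weeks. Of 22 water and vasopressin genes 9 passed that UMI minimum, and Aqp2 and Aqp3 are left out of the list's summary because the rule used them. At 10 weeks 0 of the other 7 were at least 2-fold higher and 1 was at least 2-fold lower, against 6.28% and 6.49% of all genes. At 6 weeks 1 was higher and 0 were lower, against 7.13% and 6.78%. The medians of the 7 were -0.30 at 10 weeks and 0.38 at 6 weeks, and none of them was 2-fold apart in the same direction at both ages.

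Pde10a gave the widest swing of the list. It had 205 UMIs (2705 CPM) in MRL/lpr and 535 (5200 CPM) in C57BL/6 at 10 weeks, and 271 (3965 CPM) in MRL/lpr and 73 (1101 CPM) in C57BL/6 at 6 weeks. On the log2 scale this was -0.94 (-1.18 to -0.71) for 10 and 1.85 (1.47 to 2.24) for 6 weeks, so the C57BL/6 library at 6 weeks stood lowest. The same library was lowest in late distal or connecting nuclei, where Pde10a had 1267 CPM in MRL/lpr and 1184 CPM in C57BL/6 at 10 weeks, and 1772 CPM in MRL/lpr and 190 CPM in C57BL/6 at 6 weeks. Adcy6, an adenylyl cyclase downstream of Avpr2, had a log2 ratio of -1.31 (-2.66 to -0.14) at 10 weeks and 0.49 (-0.85 to 1.89) at 6 weeks. Avpr2 itself had ratios of -0.61 (-1.32 to 0.06) at 10 weeks and -0.74 (-1.60 to 0.09) at 6 weeks, both within counting error. Pde4d was higher in MRL/lpr by a small amount at both ages, at 0.48 (0.22 to 0.74) at 10 weeks and 0.38 (0.10 to 0.67) at 6 weeks.

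Of 20 sodium and aldosterone genes 12 passed, and without the 4 genes of the rule 8 were left. At 10 weeks 0 of the 8 were at least 2-fold higher and 1 lower, against 6.28% and 6.49% of all genes. At 6 weeks 0 were higher and 2 lower, against 7.13% and 6.78%. The medians of the 8 were -0.17 at 10 weeks and -0.29 at 6 weeks. The ENaC subunit Scnn1a had 29 UMIs in MRL/lpr and 46 in C57BL/6 at 10 weeks (-0.22, -0.95 to 0.48), and 16 in MRL/lpr and 36 in C57BL/6 at 6 weeks (-1.21, -2.16 to -0.33), so only the younger age was beyond counting error. The aldosterone-induced kinase Sgk1 had 6 UMIs in MRL/lpr and 21 in C57BL/6 at 10 weeks, and 10 in MRL/lpr and 18 in C57BL/6 at 6 weeks. Nr3c2 was nearly level, with 136 UMIs in MRL/lpr and 170 in C57BL/6 at 10 weeks (0.12, -0.22 to 0.45) and 110 in MRL/lpr and 97 in C57BL/6 at 6 weeks (0.14, -0.27 to 0.55).

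**Figure D4:**
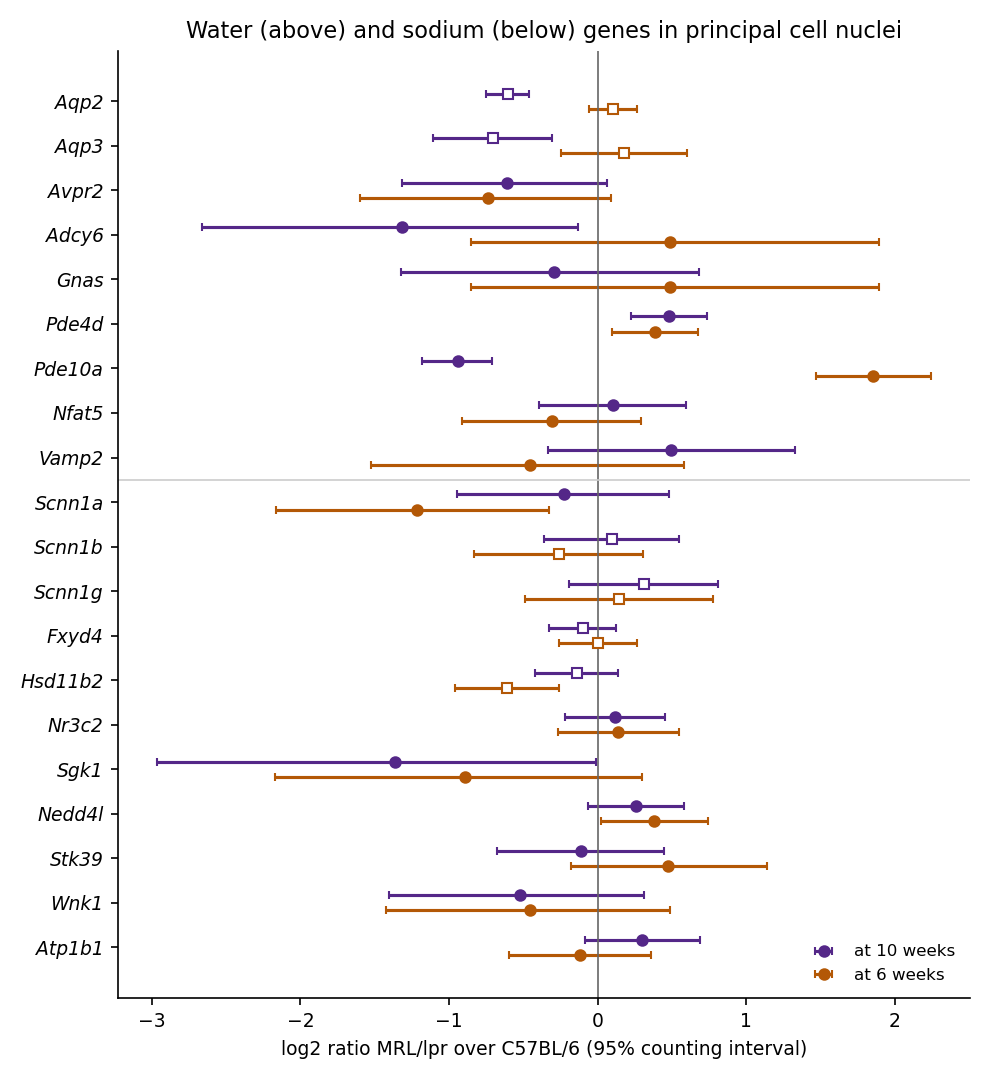
Log2 strain ratios (x axis; above 0, higher in MRL/lpr) in principal cell nuclei for water genes (upper rows) and sodium genes (lower rows), at 10 and at 6 weeks, with 95% counting intervals. Open squares are genes of the rule, counted in nuclei that met the rule without them; the Aqp2 and Aqp3 intervals lie below 0 at 10 weeks and hold 0 at 6 weeks, and those of Pde10a lie on opposite sides of 0.

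The other lists held few genes above the UMI minimum. Of 12 potassium and cilium genes 6 passed, with 0 at least 2-fold apart at 10 weeks and 1, Kcnj1, at 6 weeks (1.08, 0.21 to 2.00). Of 19 identity and Notch genes 11 passed, none 2-fold apart in the same direction at both ages. Tfap2b was higher in MRL/lpr at 10 weeks (1.86, 0.86 to 2.95) and had 0.75 (-0.40 to 1.96) at 6 weeks, while the Notch target Hes1 had 0.12 (-0.81 to 1.03) at 10 weeks and -1.56 (-3.04 to -0.26) at 6 weeks. Of 18 junction and keratin genes 6 passed, with 1 at least 2-fold higher at 10 weeks, against 6.28% of all genes, and 1 at least 2-fold lower at 6 weeks, against 6.78%. The adhesion gene Epcam was the higher one (1.69, 0.43 to 3.09), and the keratin gene Krt7, with 8 UMIs in MRL/lpr and 18 in C57BL/6, the lower one (-1.21, -2.62 to 0.06). Ptgs1, a cyclooxygenase, was the 1 of 12 prostaglandin and endothelin genes to pass, and it was more than 2-fold lower at both ages (-1.37 and -1.13), though at 6 weeks within counting error (-2.55 to 0.16).

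Immune and injury genes were mostly too sparse to compare. Of 24 interferon gamma and class I genes 3 passed, B2m, H2-K1 and H2-D1, none of them 2-fold apart at either age. H2-K1 had 20 UMIs in MRL/lpr and 54 in C57BL/6 at 10 weeks (-0.99, -1.81 to -0.23), and 19 in MRL/lpr and 25 in C57BL/6 at 6 weeks (-0.44, -1.38 to 0.48). Of 18 tubular injury genes Spp1 (osteopontin) and Clu (clusterin) passed, and Spp1 had 36 UMIs in MRL/lpr and 100 in C57BL/6 at 10 weeks (-1.03, -1.63 to -0.47), and 36 in MRL/lpr and 28 in C57BL/6 at 6 weeks (0.32, -0.43 to 1.09). Cd74, the class II chaperone, had 6 UMIs in MRL/lpr and 8 in C57BL/6 at 10 weeks, and 63 in MRL/lpr and 9 in C57BL/6 at 6 weeks. Of those 63, 33 lay in 1 nucleus, and 11 of the 14 macrophage marker UMIs of that library also lay in 1 nucleus. The 7 macrophage markers summed to 39.6 CPM in MRL/lpr and 48.6 CPM in C57BL/6 at 10 weeks, and to 205 CPM in MRL/lpr and 30.2 CPM in C57BL/6 at 6 weeks, with Adgre1 at 0 in all 4 libraries. Their part in the Cd74 count was not tested.

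Over all 1402 genes, MRL/lpr stood 2-fold or more above C57BL/6 for 19 (1.36%) at each age and 2-fold or more below for 26 (1.85%), while 11 (0.785%) were 2-fold apart in opposite directions. Counting intervals lay away from 0 at both ages for 17 of the 19 and 18 of the 26. The count of 45 changed with the UMI minimum and with the choice of nuclei. It was 15 in nuclei with no distal UMI, where 589 genes could be compared, 8 with at least 100 UMIs per gene, of 468 genes, and 185 with at least 20 UMIs per gene. The genes named were those with intervals away from 0 at both ages and a level in principal nuclei at least that in proximal tubule nuclei, 12 in each direction.

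The largest difference was that of Colec12 (ENSMUSG00000036103), a scavenger receptor gene. It had 488 UMIs in MRL/lpr and 2 in C57BL/6 at 10 weeks, a ratio of 331, and 634 in MRL/lpr and 4 in C57BL/6 at 6 weeks, a ratio of 154. It was detected in 168 of 193 MRL/lpr and 2 of 249 C57BL/6 nuclei at 10 weeks, and in 142 of 148 MRL/lpr and 4 of 168 C57BL/6 nuclei at 6 weeks, so most MRL/lpr and few C57BL/6 nuclei carried it. The difference was present in every class measured, with log2 ratios at 10 and 6 weeks of 8.37 and 7.26 in principal, 8.41 and 7.24 in intercalated, 8.55 and 7.78 in late distal or connecting and 8.73 and 7.10 in proximal tubule nuclei. In podocyte nuclei they were 3.53 and 3.78. Thinned to 200 UMIs, it was also detected in 66.7% and 61.6% of MRL/lpr podocyte nuclei at 10 and 6 weeks, against 10.4% and 5.56% in C57BL/6.

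Other genes higher in MRL/lpr differed in how far other classes shared the ratio. Egfem1, which encodes an EGF-like domain protein, had 182 UMIs in MRL/lpr and 16 in C57BL/6 at 10 weeks (log2 3.95, 3.21 to 4.79), and 84 in MRL/lpr and 30 in C57BL/6 at 6 weeks (1.44, 0.82 to 2.09). In late distal or connecting nuclei its ratios were 2.22 at 10 weeks and 0.22 at 6 weeks. Ethe1, a mitochondrial sulfide-clearing enzyme, had 30 UMIs in MRL/lpr and 7 in C57BL/6 at 10 weeks (2.54), and 42 in MRL/lpr and 3 in C57BL/6 at 6 weeks (3.76). The C57BL/6 counts behind both ratios were small. Stam2, an endosomal sorting protein, had 26 UMIs in MRL/lpr and 11 in C57BL/6 at 10 weeks (1.68), and 40 in MRL/lpr and 2 in C57BL/6 at 6 weeks (4.28). The adhesion receptor gene Adgrg3 had 92 in MRL/lpr and 27 in C57BL/6 at 10 weeks (2.21), and 68 in MRL/lpr and 22 in C57BL/6 at 6 weeks (1.58). In late distal or connecting nuclei the Adgrg3 ratios were 2.36 at 10 weeks and 1.78 at 6 weeks. In proximal tubule nuclei they were 1.57 and 2.49, and in intercalated nuclei 0.01 (-1.44 to 1.42) and 2.65 (1.29 to 4.36). Stam2 had ratios of at least 2.90 in the intercalated, late distal or connecting and proximal tubule classes at both ages. The remaining 7 genes were Bbs9, a subunit of a ciliary trafficking complex, the secreted glycoprotein gene Fstl1, the cytoskeletal genes Epb41l3 and Fmnl2, the ribonuclease gene Rnaset2a, the zinc finger gene Zfp949 and Gm26632, with log2 ratios of 1.23 to 3.03 over both ages. Rnaset2a has a near-identical copy, so its counts are uncertain.

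Atp4a (ENSMUSG00000005553), the catalytic subunit of the gastric type of proton-potassium pump that the collecting duct also uses, led the genes lower in MRL/lpr. It had 1 UMI in MRL/lpr and 106 in C57BL/6 at 10 weeks, and 0 in MRL/lpr and 29 in C57BL/6 at 6 weeks. Nuclei with a UMI were likewise at or near 0 in MRL/lpr, with 1 of 193 MRL/lpr and 64 of 249 C57BL/6 nuclei at 10 weeks, and 0 of 148 MRL/lpr and 24 of 168 C57BL/6 nuclei at 6 weeks. Among podocyte nuclei, whose depth was given above, the share with a UMI was 1.35% in C57BL/6 at 10 weeks and 0 in the other 3 libraries. The log2 ratio was -6.29 (-11.60 to -3.78) at 10 weeks. At 6 weeks the 0 was set at 3 UMIs in that library, and Atp4a was at least 9.96-fold lower in MRL/lpr. In late distal or connecting nuclei it had 11 UMIs in MRL/lpr and 58 in C57BL/6 at 10 weeks, and 3 in MRL/lpr and 24 in C57BL/6 at 6 weeks. In intercalated nuclei it had 3 UMIs in MRL/lpr and 10 in C57BL/6 at 10 weeks (log2 -1.44, -3.93 to 0.52), and 5 in MRL/lpr and 11 in C57BL/6 at 6 weeks (-1.30, -3.17 to 0.35). In proximal tubule nuclei Atp4a had 4 UMIs in MRL/lpr and 70 in C57BL/6 at 10 weeks (-4.19, -6.11 to -2.77). At 6 weeks those nuclei had 5 in MRL/lpr and 20 in C57BL/6 (-2.45, -4.22 to -0.99). Whether the ratio differs between the classes was not tested.

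Spock3, a secreted proteoglycan gene, showed the same layout, with 4 UMIs in MRL/lpr and 51 in C57BL/6 at 10 weeks (log2 -3.23, -5.16 to -1.79), and 0 in MRL/lpr and 33 in C57BL/6 at 6 weeks, at least 11.3-fold lower in MRL/lpr. Abr, a regulator of small GTPases, had 14 UMIs in MRL/lpr and 89 in C57BL/6 at 10 weeks (-2.23, -3.16 to -1.41), and 7 in MRL/lpr and 52 in C57BL/6 at 6 weeks (-2.94, -4.32 to -1.79). Intercalated nuclei gave -2.10 (-2.72 to -1.53) for the older and -2.09 (-2.69 to -1.53) for the younger mice. Late distal or connecting nuclei gave -0.23 (-0.68 to 0.21) for the older and -0.52 (-0.94 to -0.11) for the younger mice, and proximal tubule nuclei gave -0.09 (-0.39 to 0.22) at 10 weeks and -0.19 (-0.52 to 0.14) at 6 weeks. Both collecting duct classes thus gave intervals below those of the other tubule classes, a difference between classes that was not tested.

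The list of genes lower in MRL/lpr held 9 more. Rap1gap, an inactivator of the GTPase Rap1, had 8 UMIs in MRL/lpr and 38 in C57BL/6 at 10 weeks (-1.81), and 2 in MRL/lpr and 27 in C57BL/6 at 6 weeks (-3.80). The interleukin 17 receptor subunit gene Il17re had 7 in MRL/lpr and 31 in C57BL/6 at 10 weeks (-1.71), and 6 in MRL/lpr and 20 in C57BL/6 at 6 weeks (-1.78). Both genes were lower in MRL/lpr beyond counting error at each age, which the rule for naming required. Tmcc3, Fyb2, Apobec3 (an antiviral cytidine deaminase), the tetraspanin genes Tspan18 and Tspan15, Eml6 and Gclc (the catalytic subunit of the first enzyme of glutathione synthesis) had log2 ratios between -3.04 and -1.40 over both ages. S100g, a calcium-binding protein gene of the connecting tubule that was picked after its values were seen, had 27 UMIs in MRL/lpr and 190 in C57BL/6 at 10 weeks (-2.37, -3.01 to -1.79), and 33 in MRL/lpr and 79 in C57BL/6 at 6 weeks (-1.30, -1.94 to -0.70). Its ratio was below 0 in the intercalated, late distal or connecting and proximal tubule classes too, at -1.76, -1.38 and -1.74 at 10 weeks.

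**Figure D5:**
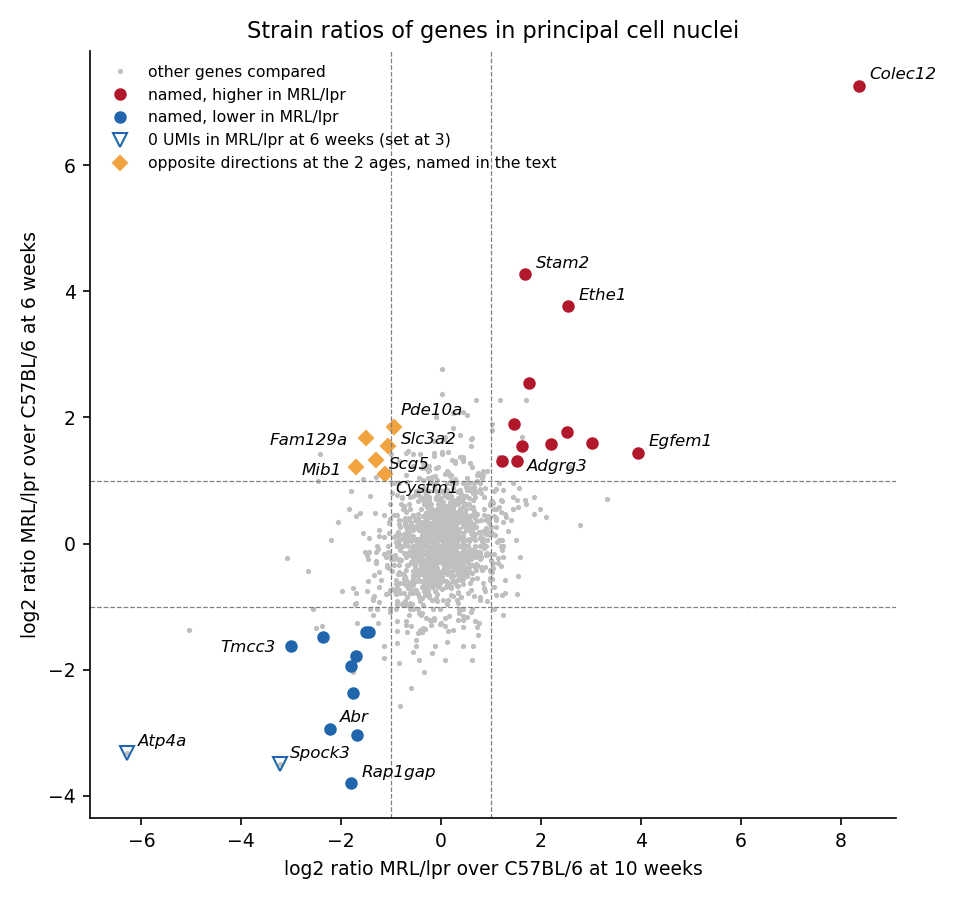
Log2 strain ratio (above 0, higher in MRL/lpr) in principal cell nuclei at 10 weeks (x axis) and at 6 weeks (y axis), 1 point per gene with at least 50 UMIs and outside the rule; dashed lines mark 2-fold. Colec12 stands alone at 8.37 and 7.26, Atp4a lies lowest on the x axis at -6.29, and 6 genes including Pde10a and Mib1 lie above 0 at 6 weeks and below 0 at 10 weeks.

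Between the ages few genes stood 2-fold apart in both strains, namely 1 (0.0713%) higher and 4 (0.285%) lower at 10 weeks, with 9 (0.642%) apart in opposite directions. In MRL/lpr alone 64 (4.56%) were higher and 72 (5.14%) lower at 10 weeks, and in C57BL/6 alone 63 (4.49%) were higher and 39 (2.78%) lower. The chromatin remodeller gene Chd2 had 24 UMIs at 10 weeks and 7 at 6 weeks in MRL/lpr (log2 ratio of 10 over 6 weeks 1.63), and 30 at 10 weeks and 8 at 6 weeks in C57BL/6 (1.27). Beta-actin, Actb, had 6 at 10 weeks and 22 at 6 weeks in MRL/lpr (-2.02), and 21 at 10 weeks and 39 at 6 weeks in C57BL/6 (-1.53). Plpp1, a lipid phosphatase gene, had ratios of -2.32 in MRL/lpr and -1.48 in C57BL/6. The fourth was mt-Cytb. Slc26a4 (pendrin), a defining gene of intercalated cells, had 4 UMIs at 10 weeks and 25 at 6 weeks in MRL/lpr, and 7 at 10 weeks and 18 at 6 weeks in C57BL/6. Of these, 11 of the 25 in MRL/lpr and all 18 in C57BL/6 at 6 weeks lay in 1 nucleus each, so this ratio rests on single nuclei. With genes of at least 100 UMIs none was 2-fold apart in both strains.

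Mitochondrially encoded and ribosomal protein genes, which mark cytoplasmic RNA in nuclear preparations, moved with the libraries. Of 13 mitochondrial genes 6 passed, with list medians for the strain ratio of -1.05 at 10 weeks and -0.11 at 6 weeks. Of 83 ribosomal protein genes 33 passed, with medians of -0.67 at 10 weeks and 0.02 at 6 weeks. The mitochondrial share of UMIs in principal nuclei was 0.0910% in MRL/lpr and 0.195% in C57BL/6 at 10 weeks, and 0.239% in MRL/lpr and 0.267% in C57BL/6 at 6 weeks, so the library with the lowest Aqp2 level also had the lowest share. Its part in the strain ratios at 10 weeks was not tested.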

How the data were processed

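Nuclear RNA of kidney cortex was counted per barcode in 4 droplet libraries. The deposited matrices hold UMI counts per gene and barcode for 25636 genes, made by the authors with Cell Ranger. Per the file headers this was version 5.0.0, whereas the submitters' processing notes list 3.1.0. Genome build and intronic counting: not given in the sources used here. From these counts, barcodes were filtered and classes chosen by the stated genes, UMIs were summed per library and class, and sums were scaled to counts per 1000000 (CPM). With 1 library per group, strain and age ratios have conditional exact binomial 95% intervals, which cover counting error only, and no test; genes needed 50 UMIs over the 4 libraries, and a count of 0 was set at 3 UMIs for a bound. Class sums (8 per comparison) were compared with edgeR 4.0.16 (quasi-likelihood test, TMM, filterByExpr, the library as a block, Benjamini-Hochberg adjustment, adjusted p under 0.05 and at least 2-fold). Nothing states that libraries came from separate animals, so these p-values measure the spread between libraries only. DESeq2 1.42.0 in R 4.3.3 was an alternative. Doublets were marked by Scrublet in scanpy 1.11.5 at 0.8% per 1000 barcodes, which marked 2 members in MRL/lpr and 10 in C57BL/6 at 10 weeks, and 9 in MRL/lpr and 10 in C57BL/6 at 6 weeks; they were kept and left out in an alternative. In MRL/lpr at 6 weeks its threshold marked 0 barcodes, so the expected number with the highest scores was used. The fits and intervals were tested on simulated data.

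The members and gene lists were chosen with earlier results of these data known. Named strain genes were the 12 in each direction with the largest smaller ratio of the 2 ages, among genes at least 2-fold apart the same way at both ages, with intervals away from 0 and a pooled level in principal nuclei at least that in proximal tubule nuclei. Age genes followed the same rule with up to 8 in each direction. Class genes were the 10 with the largest log2 ratio in each direction among those past the threshold, alike in all 4 libraries and at 50 CPM or more in the higher class, with genes of the class choices left out. List genes above the UMI minimum could also be named. Some genes counted in these lists are not reported here by name. List summaries omit the 6 genes that chose the members, a choice made after seeing the data.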

Additional observations from a re-analysis of the deposited data

Results flagged for a closer look

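Of the 11 genes at least 2-fold apart in opposite directions at the 2 ages, 5 had counting intervals away from 0 at both ages, and each was lower in MRL/lpr at 10 weeks and higher in MRL/lpr at 6 weeks. Fam129a had 28 UMIs in MRL/lpr and 108 in C57BL/6 at 10 weeks (log2 -1.51, -2.16 to -0.90), and 72 in MRL/lpr and 22 in C57BL/6 at 6 weeks (1.67, 0.96 to 2.43). Scg5, which encodes a chaperone of a prohormone convertase, had 24 in MRL/lpr and 80 in C57BL/6 at 10 weeks (-1.30), and 54 in MRL/lpr and 21 in C57BL/6 at 6 weeks (1.32). Mib1 had 23 in MRL/lpr and 102 in C57BL/6 at 10 weeks (-1.71), and 43 in MRL/lpr and 18 in C57BL/6 at 6 weeks (1.21), while in late distal or connecting nuclei its ratios were -0.40 (-1.13 to 0.29) at 10 weeks and 0.20 (-0.38 to 0.77) at 6 weeks. In intercalated nuclei the Mib1 ratios were -0.11 (-1.33 to 1.06) at 10 weeks and 1.32 (0.17 to 2.60) at 6 weeks. Cystm1 had 19 in MRL/lpr and 56 in C57BL/6 at 10 weeks (-1.12), and 42 in MRL/lpr and 19 in C57BL/6 at 6 weeks (1.10). Slc3a2, the heavy chain of several amino acid transporters, had 12 in MRL/lpr and 34 in C57BL/6 at 10 weeks (-1.06), and 24 in MRL/lpr and 8 in C57BL/6 at 6 weeks (1.54). With 1 library per group the difference between the ages was not tested for any of them.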

How the results depend on the processing

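The principal share ratio at 10 weeks was 0.556 with at least 400 genes per barcode, 0.623 with barcodes thinned to 500 UMIs and 0.962 over distal and collecting duct nuclei alone, a denominator chosen after seeing the data; at 6 weeks it was 1.45 when thinned. The 45 genes apart between strains at both ages became 29 in nuclei with no proximal tubule UMI, 15 with no distal UMI, 9 with at least 400 genes per barcode, 185 with at least 20 UMIs per gene and 8 with at least 100. Fewer or more genes could be compared under these settings, from 201 to 4052 against 1402. The 5 genes apart between ages became 3 with no proximal tubule UMI, 12 with the highest library minimum of 308 UMIs applied to all, 92 with at least 20 UMIs per gene and 0 with at least 100. The 701 genes apart from intercalated nuclei became 1226 with no filter on low counts. Leaving out each library in turn gave 704 to 799 genes against intercalated and 481 to 537 against late distal or connecting nuclei, and DESeq2 gave 582 and 384. Without the replicate block the counts were 685 and 435, against 701 and 516 with it. No paired analysis was possible because strain and age groups hold 1 library each. Ratios of named genes were followed only in settings where the gene still reached the UMI minimum and had a ratio. The other settings were not counted. Of the 266 alternatives left, 261 moved by less than the counting interval, 5 moved by more and 0 reversed. Each setting drew on a subset of the same nuclei, and the genes were named for intervals away from 0, so this is no independent check. Medians of 371 to 403 UMIs per nucleus leave most genes of the immune and injury lists below the UMI minimum.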
